A study of Mus musculus with 4 samples.

Results

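Voltage-gated calcium and sodium channel genes were described in single cells of mouse pancreatic islets, gated by the hormone that each cell carried. Members were taken by symbol and numbered 39 of 38457 mouse features: 10 pore-forming calcium channel genes (Cacna1), 4 Cacna2d, 4 Cacnb and 8 Cacng genes for accessory calcium channel subunits, 9 sodium channel alpha genes and 4 sodium channel beta genes. The gene for the Scn2a channel is listed as Scn2a1, a symbol outside that rule, and was not a member. The rule used symbols alone, and the set was chosen with earlier results of these data known.

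Cells were captured with inDrop, a droplet method in which each cell's RNA is tagged with a barcode and copied by linear CEL-Seq amplification, so that counts come mostly from the 3′ ends of messages. The series holds 2 libraries labelled Sin3A mutant and 2 labelled WT, described as 2 biological replicates. Mutant A and WT A share the number at the end of their titles, and mutant B and WT B share the other. The sources used here give no strain, age, treatment, targeted part of Sin3a or cell type that carries the mutation, and no other allele. Sin3A is the scaffold of a histone deacetylase complex.

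Voltage-gated calcium channels are built on a pore-forming alpha1 subunit, which sets the channel type: L-type (Cacna1c, Cacna1d, Cacna1f, Cacna1s), P/Q-type (Cacna1a), N-type (Cacna1b), R-type (Cacna1e) and low-voltage T-type (Cacna1g, Cacna1h, Cacna1i). Alpha2delta and beta subunits bring the pore to the membrane and tune its gating, and gamma subunits include both channel partners and regulators of AMPA receptors. Sodium channels have a single large alpha subunit, which opens fast and carries the upstroke of the action potential, together with small beta subunits. In islet cells, closure of ATP-sensitive potassium channels depolarizes the membrane, and calcium entering through voltage-gated channels triggers the release of hormone granules. The repressor REST, which recruits Sin3A, is known for silencing sodium channel and other neuronal genes outside neurons.

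After filters, 6526 cells of 6948 barcodes were kept, and the total counts per library ran between 9282497 and 12835201. A cell was gated by a hormone when that hormone made up at least 2% of its counts and at least 5 times the share of each other hormone. This gave 62 pancreatic polypeptide-gated (PP-gated) cells with 13 to 20 per library, 182 somatostatin-gated cells with 28 to 70, 1093 glucagon-gated cells with 121 to 488 and 2842 insulin-gated cells with 611 to 781. Cells poor in all 4 hormones were gated by marker panels, which left 770 mesenchymal and 272 endothelial cells, while ductal, immune and Schwann panels had too few cells. Marker lists that the gates did not use were highest in their own gate: insulin-cell markers summed to between 27985 and 42391 CPM (counts per 1000000 counts of all genes in the gate) in insulin-gated cells, glucagon-cell markers to between 2936 and 7691 CPM in glucagon-gated cells, and somatostatin-cell markers to between 4801 and 11758 CPM in somatostatin-gated cells. Pancreatic polypeptide-cell markers summed to between 108965 and 133374 CPM in PP-gated cells, but also to between 53385 and 66866 CPM in somatostatin-gated cells. Of that list, Sertm1 had no counts in PP-gated cells. Insulin-cell markers summed to between 12603 and 20950 CPM in somatostatin-gated cells. The gates were thus not fully apart by these lists. Erythroid genes reached 7345 CPM in the PP-gated cells of WT B and 0 CPM in those of the other libraries. The libraries of a label differed beyond counting error, by a chi-square of 130 per degree of freedom between the mutant pair and 52.2 between the WT pair. Libraries shared between 12 and 42 barcode names in pairs, and mutant A held 1321 distinct names among 1323 barcodes.

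Sin3a itself did not follow its label. In insulin-gated cells it had 50.2 and 18.1 CPM in mutant A and B, against 24.7 and 41.3 CPM in WT A and B. Within A, the mutant library was the higher one (ratio 2.03, 95% counting interval 1.70 to 2.44), and within B lower (ratio 0.439, 0.340 to 0.563). Tags from the 3′ end need not lie in the changed part of the gene, so these counts check nothing about the allele. Sin3a also overlaps Man2c1os at its 3′ end on the opposite strand. The labels do not say whether the counting used strand, so the Sin3a counts may include Man2c1os reads. Whether the labels within A are exchanged was not tested, and each ratio of mutant A to WT A below would turn round if they were. The libraries are called by their labels below.

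Of the 39 members, all had at least 1 count in insulin-gated cells, and 34 had at least 20 counts over the 4 libraries in some gate. Insulin-gated cells passed that mark for 34 members, glucagon-gated cells for 26, somatostatin-gated cells for 10 and PP-gated cells for 5, an order that runs with the counts behind each gate, 24802993, 6181549, 894958 and 382349. The 5 members under it were Cacna1s and Cacna2d3 and the gamma subunits Cacng1, Cacng3 and Cacng6, with between 15 and 19 counts each among the insulin-gated cells. Because the tags come from message ends, levels were not divided by gene length.

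Between hormone gates, sodium channel alpha genes and the gamma subunit Cacng4 accounted for most of the differences that passed the test, while none of the 4 pore-forming calcium channel genes left by the low-count filter did. Without that filter the T-type gene Cacna1h was higher in somatostatin-gated cells than in glucagon-gated and insulin-gated cells, and Cacna1i higher than in insulin-gated cells only. In these comparisons counts were summed per library and gate, so that n = 4 libraries on each side, and fitted with edgeR's quasi-likelihood test over 9377 genes with the library as a block. The low-count filter left 11 members in the fit: Cacna1a, Cacna1c, Cacna1d, Cacna1e, Cacna2d1, Cacnb2, Cacnb3, Cacng4, Scn3a, Scn8a and Scn9a. Glucagon minus insulin had 4 of the 11 past an adjusted p of 0.05 (3 higher and 1 lower), where 20.7% of all genes tested passed (10% higher and 10.7% lower). Somatostatin minus insulin had 2 of 11, both higher, beside 14.4% of all genes (6.80% higher). For somatostatin minus glucagon the count was 3 of 11 (2 higher and 1 lower), beside 9.73% (5.44% higher and 4.29% lower). PP minus insulin had 3 of 11, all higher, beside 8.72% (3.30% higher). PP minus somatostatin had 0 of 11, beside 2.48%. DESeq2 put 2 members, Cacna2d1 and Cacng4, past the adjusted threshold there, where 2.98% of genes passed, and the edgeR fit without the low-count filter likewise 2, Cacna1h and Cacng4, where 1.05% passed. PP minus glucagon likewise had 0 of 11, beside 2.06%, and 1, Cacna2d1, by DESeq2, where 2.67% of genes passed. The low-count filter could keep a member on the counts of 1 gate alone, and such a member could hardly come out other than higher in that gate. The counts and directions of members called were thus partly set by the filter. The shares of members called were not tested against those backgrounds. The median log2 difference of the 11 members was 0.27 in glucagon minus insulin and 0.50 in somatostatin minus insulin, beside 0.06 and -0.04 over all genes.

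**Figure D1:**
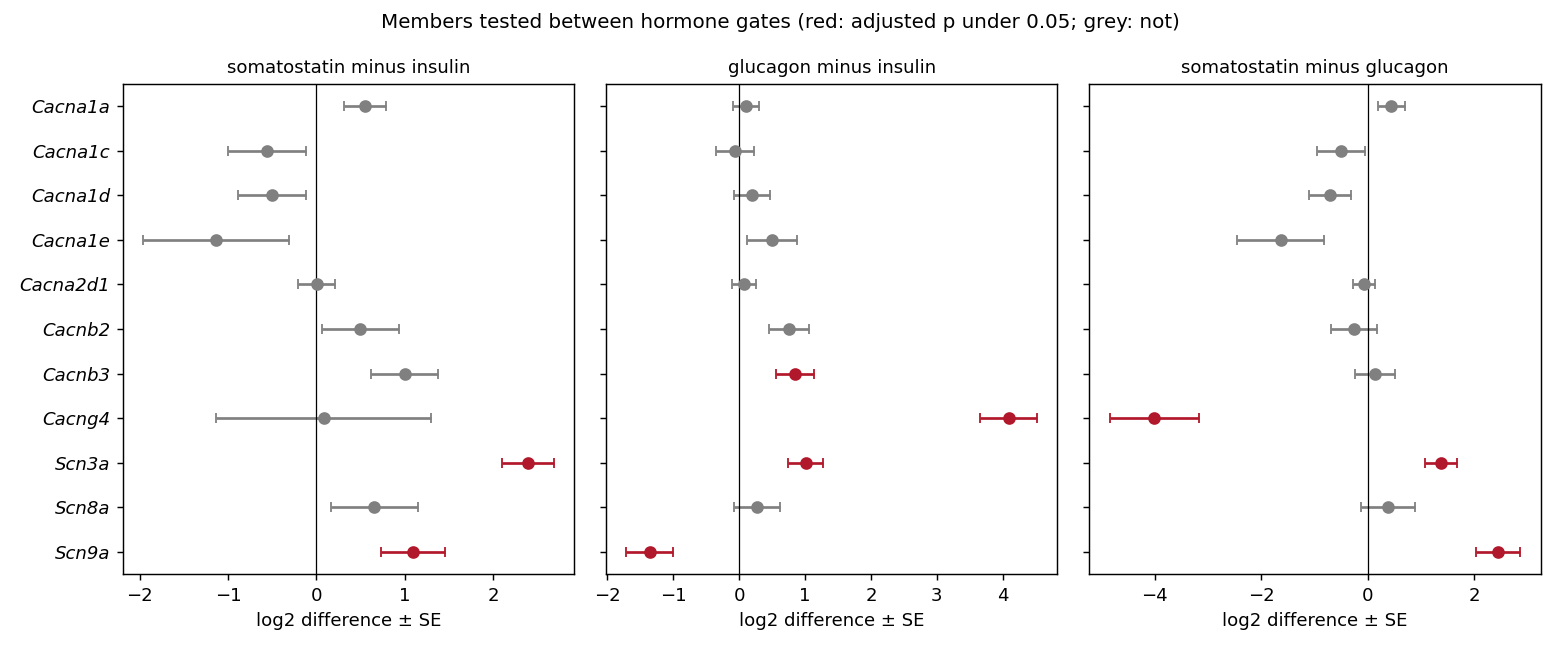
Log2 difference with its SE for the 11 tested members in somatostatin minus insulin, glucagon minus insulin and somatostatin minus glucagon, over 4 libraries per gate. Red points passed an adjusted p of 0.05 and grey points did not. Scn3a and Scn9a lie to the right in somatostatin minus insulin and somatostatin minus glucagon, and Cacng4 lies furthest out in the panels that hold glucagon-gated cells.

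Among calcium channel pores, the P/Q-type gene Cacna1a and the L-type gene Cacna1d, which are known for carrying much of the calcium current of islet endocrine cells, held the largest mean shares of the class in glucagon-gated and insulin-gated cells. Cacna1d had 78.2 and 48.5 CPM in mutant A and B and 62.0 and 68.8 CPM in WT A and B among glucagon-gated cells. Insulin-gated cells had 51.6 and 52.0 CPM in mutant A and B and 34.4 and 87.1 CPM in WT A and B, so the 2 gates overlapped (log2 difference 0.20 ± 0.28, SE, edgeR adjusted p = 0.70). Cacna1a was at 76.9 and 39.4 CPM in mutant A and B and 44.7 and 57.6 CPM in WT A and B in glucagon-gated cells, and at 55.3, 35.7, 36.3 and 72.2 CPM in mutant A, mutant B, WT A and WT B in insulin-gated cells. That difference was 0.10 ± 0.20 on the log2 scale (edgeR adjusted p = 0.85). As shares of all Cacna1 counts, Cacna1d made up 33.6% ± 3.33 in glucagon-gated and 31.9% ± 4.22 in insulin-gated cells, and Cacna1a 28.0% ± 1.65 and 28.5% ± 3.34 (SD, n = 4 each). The second L-type gene, Cacna1c, followed with 17.6% ± 4.34 in glucagon-gated and 19.6% ± 0.745 in insulin-gated cells. Glucagon-gated and insulin-gated cells thus had their pore genes in the same order, Cacna1d, Cacna1a and Cacna1c, with the first and second within their spread over libraries. Cacna1d overlaps Chdh at its 3′ end on the opposite strand, and reads of the pair cannot be told apart without strand. The levels and shares of Cacna1d, and its place in that order, may thus include Chdh reads.

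In somatostatin-gated cells the mix of pores differed in level from that order, though the gate rests on 192 Cacna1 counts. Cacna1a had the largest mean share there, 34.0% ± 4.90, and Cacna1d had 15.8% ± 12.5 (SD, n = 4). Cacna1d was at 0 and 38.6 CPM in mutant A and B and at 27.7 and 82.6 CPM in WT A and B, and its difference from insulin-gated cells was -0.51 ± 0.38 (edgeR adjusted p = 0.46). A T-type gene took up part of the class: Cacna1h, a channel that opens near the resting potential, had 15.9 and 22.5 CPM in mutant A and B and 51.5 and 68.1 CPM in WT A and B in somatostatin-gated cells. In glucagon-gated cells Cacna1h had 8.09 and 1.62 CPM in mutant A and B and 3.05 and 5.76 CPM in WT A and B. In insulin-gated cells it had 7.20, 3.12, 3.10 and 7.67 CPM in mutant A, mutant B, WT A and WT B. Every somatostatin value of Cacna1h thus lay above every glucagon and insulin value, and the pooled level was 7.86 times that of insulin-gated cells (95% counting interval 5.27 to 11.5, from 36 and 127 counts). The lowest somatostatin value, 15.9 CPM in mutant A, rested on 2 counts. Cacna1h made up 17.1% ± 6.82 of the Cacna1 counts in somatostatin-gated cells.

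Cacna1h did not pass the low-count filter, and in the fit without it (32147 genes, of which 6.76% passed in somatostatin minus insulin) its log2 difference from insulin-gated cells was 2.63 ± 0.43 (edgeR adjusted p = 6.48e-08). From glucagon-gated cells it differed by 3.17 ± 0.49 (edgeR adjusted p = 1.15e-08), where 3.39% of genes passed. PP-gated cells had 1 Cacna1h count in all. Cacna1h (chr17:25374285-25433783, minus strand, GRCm38) overlaps Tpsg1 at its 3′ end on the opposite strand, and the labels do not say whether the counting used strand, so reads of the pair cannot be told apart. The related T-type gene Cacna1i had 55.5 and 6.44 CPM in mutant A and B and 19.8 and 9.72 CPM in WT A and B in somatostatin-gated cells, against 2.73 to 5.05 CPM in insulin-gated cells (1.80 ± 0.52 without the filter, edgeR adjusted p = 0.0123). Its 16 somatostatin counts include 7 from mutant A. Against glucagon-gated cells Cacna1i did not pass in that fit (1.59 ± 0.55, edgeR adjusted p = 0.0960).

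PP-gated cells rested on 81 Cacna1 counts, of which Cacna1a had 33.3% ± 3.03 and Cacna1d 28.6% ± 12.5 (SD, n = 4). The R-type gene Cacna1e had 34.1 and 18.8 CPM in mutant A and B and 12.7 and 24 CPM in WT A and B in PP-gated cells, against 10.6, 7.60, 4.84 and 7.08 CPM in mutant A, mutant B, WT A and WT B in insulin-gated cells. These ranges did not overlap, but the PP values stand on 8 counts and the difference did not pass (1.22 ± 0.68, edgeR adjusted p = 0.33). The N-type gene Cacna1b had 0 counts in PP-gated cells, which allows up to 56.3 CPM in the library with the fewest counts (3 counts per library), and 3.52 to 16.6 CPM in insulin-gated cells. Cacna1f, best known from photoreceptors, and the T-type Cacna1g stayed between 0.585 and 9.44 CPM in every library of glucagon-gated and insulin-gated cells.

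**Figure D2:**
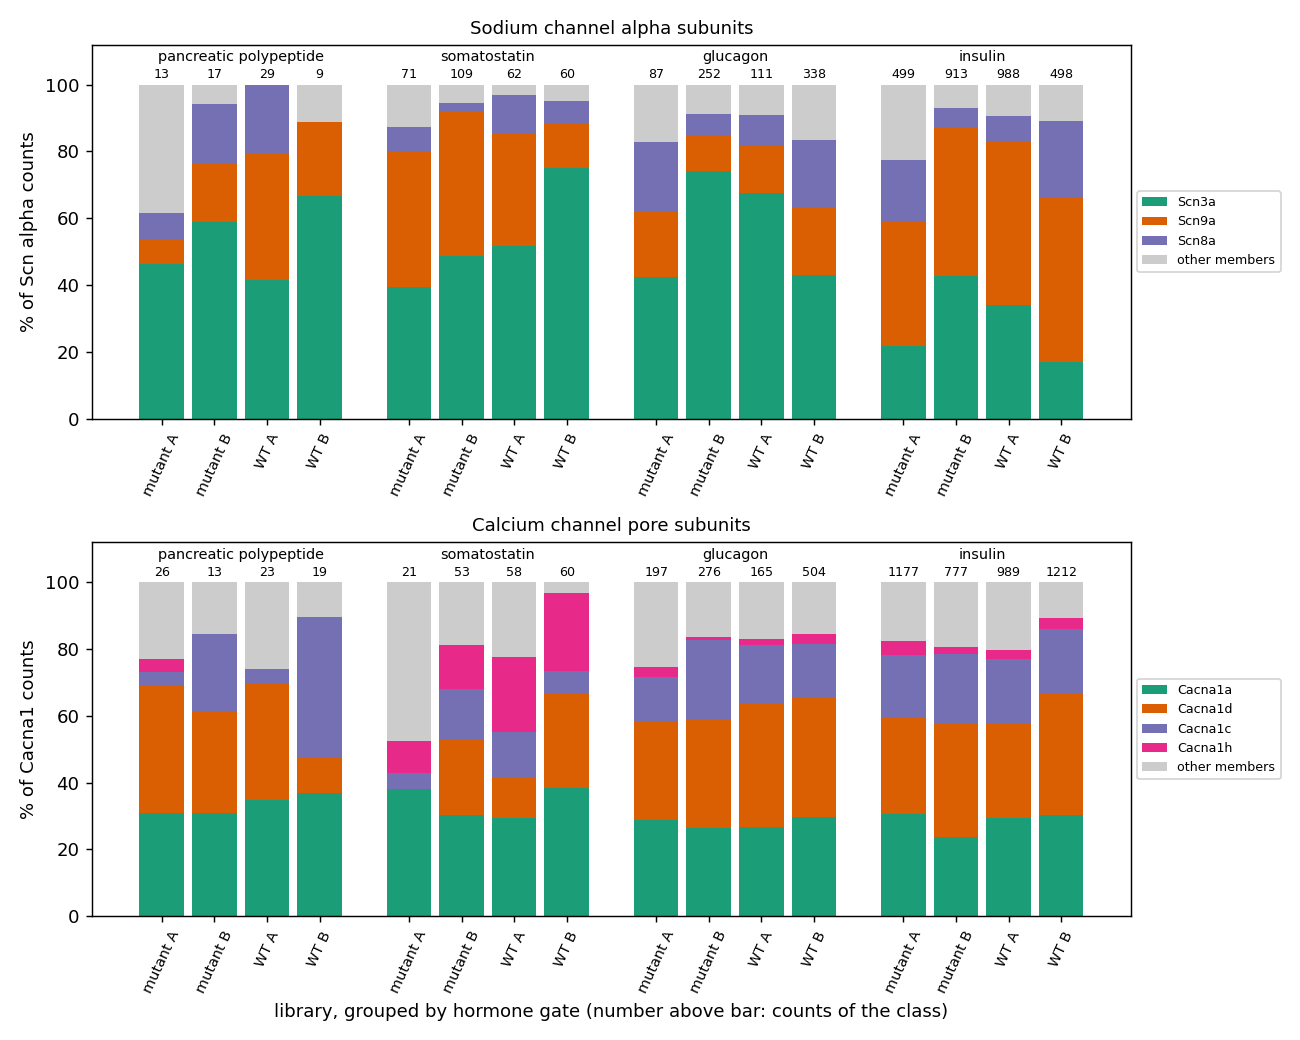
Share of each gene in the counts of its class, per library and hormone gate, for sodium channel alpha genes (top) and calcium channel pore genes (bottom); the number above a bar is the count of the class. Scn9a fills between 10.3% and 20.1% of the alpha counts in glucagon-gated libraries and between 37.7% and 49.2% in insulin-gated libraries. Cacna1h takes between 9.52% and 23.3% of the Cacna1 counts in the somatostatin bars.

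The promoter windows of Cacna1d are printed because the gene has 2 annotated starts with unlike base composition, beside that of Cacna2d1, the highest member, and of Scn9a, whose level differed between gates. Each runs 5′ to 3′ over 250 bases before and 50 after the annotated start (RefSeq, GRCm38.p6), with CG dinucleotides in capitals. Scn9a is at chr2:66634913-66635212 (minus strand), Cacna2d1 at chr5:15934441-15934740 (plus strand), and Cacna1d at chr14:30491107-30491406 (start 1) and chr14:30353437-30353736 (start 2), both on the minus strand.
Scn9a: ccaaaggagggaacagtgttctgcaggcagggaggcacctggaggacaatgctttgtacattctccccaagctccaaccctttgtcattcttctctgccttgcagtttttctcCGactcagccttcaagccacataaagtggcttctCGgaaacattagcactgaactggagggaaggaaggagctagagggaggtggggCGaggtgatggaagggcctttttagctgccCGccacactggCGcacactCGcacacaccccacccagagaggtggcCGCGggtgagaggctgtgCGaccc
Cacna2d1: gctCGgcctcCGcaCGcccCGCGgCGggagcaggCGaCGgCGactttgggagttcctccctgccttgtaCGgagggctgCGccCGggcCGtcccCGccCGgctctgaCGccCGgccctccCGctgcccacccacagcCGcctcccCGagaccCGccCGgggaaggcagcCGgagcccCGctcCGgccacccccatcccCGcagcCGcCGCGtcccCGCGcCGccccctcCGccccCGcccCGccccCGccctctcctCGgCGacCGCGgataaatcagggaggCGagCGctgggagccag
Cacna1d start 1: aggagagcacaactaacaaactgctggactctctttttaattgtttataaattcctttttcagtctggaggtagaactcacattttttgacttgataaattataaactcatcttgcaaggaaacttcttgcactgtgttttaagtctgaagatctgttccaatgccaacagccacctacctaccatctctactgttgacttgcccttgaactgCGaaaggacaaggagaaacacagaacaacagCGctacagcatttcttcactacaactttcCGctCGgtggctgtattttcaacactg
Cacna1d start 2: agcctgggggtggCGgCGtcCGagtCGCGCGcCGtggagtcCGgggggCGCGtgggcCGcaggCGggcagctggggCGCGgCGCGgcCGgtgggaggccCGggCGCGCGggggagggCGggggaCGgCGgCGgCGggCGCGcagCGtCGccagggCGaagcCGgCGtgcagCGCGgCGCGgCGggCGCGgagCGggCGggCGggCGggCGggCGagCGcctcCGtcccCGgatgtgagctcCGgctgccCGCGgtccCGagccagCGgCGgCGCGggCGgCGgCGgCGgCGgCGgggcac
Cacna1d thus has a start with 4 CG dinucleotides and another with 63, while Cacna2d1 holds 42 and Scn9a 9. Over all 32851 promoter windows the median was 7 (quartiles 3 and 20), and over the 39 windows that matched 29 member genes it was 11 (5 and 31.5). Counts from message ends cannot tell which start was used.

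Because REST recruits Sin3A, the windows were also searched on both strands for letters of its response element. The 39 member windows cover 29 member genes. Scn3a, Scn3b, Cacng4, Cacna2d4, Cacna1a and Cacna1h were among the members without a window and were not searched. TTCAGCACC, the left part of the element, occurred in 0 of the 39 member windows, beside 0.371% of all windows. CAGCACC, contained in it, occurred in 0 of 39, beside 7.14%. GGACAG, from the right part, occurred in 7 of 39 (17.9%), in Cacnb1, Cacnb3, Cacng5, Cacng6, Cacng8 and Scn8a, beside 22.2% of all windows. These are matches of letters in a short window, and no match says only that the letters are not there.

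Cacna2d1, an alpha2delta subunit and the target of gabapentinoid drugs, had the most counts of all members in each hormone gate. PP-gated cells had 353 and 601 CPM in mutant A and B and 260 and 276 CPM in WT A and B. Somatostatin-gated cells had 159 and 206 CPM in mutant A and B and 119 and 282 CPM in WT A and B. Glucagon-gated cells had 144, 224, 173 and 227 CPM, and insulin-gated cells 129, 222, 139 and 246 CPM, in mutant A, mutant B, WT A and WT B. Somatostatin, glucagon and insulin gates overlapped, and every PP value lay above all insulin values. PP-gated cells were higher than insulin-gated cells by 0.85 ± 0.22 on the log2 scale (edgeR adjusted p = 0.00937). The call was lost without mutant B (0.73, adjusted p = 0.112), without WT A (0.88, 0.0744) and in fits without the library block, without the low-count filter or with the PP and insulin gates alone.

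Other alpha2delta genes were lower, and 2 of them differed between gates. Cacna2d4, best known from retina, had 31.0 and 29.7 CPM in mutant A and B and 21.4 and 58.0 CPM in WT A and B in glucagon-gated cells. Insulin-gated cells had 6.89, 4.09, 2.36 and 4.72 CPM in mutant A, mutant B, WT A and WT B, so the gates did not overlap. The pooled glucagon level was 9.20 times that of insulin-gated cells (7.32 to 11.6, 250 and 109 counts), and the fit without the low-count filter gave 2.67 ± 0.34 (edgeR adjusted p = 3.57e-13, 8.59% of genes called). Somatostatin-gated cells held 6 Cacna2d4 counts and were lower than glucagon-gated cells by -2.44 ± 0.57 in that fit (edgeR adjusted p = 0.00129). The gene (chr6:119236526-119352407, plus strand) overlaps Lrtm2 on the opposite strand.

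Cacna2d2, an alpha2delta subunit of cerebellar Purkinje cells, was highest in somatostatin-gated cells, with 47.6 and 12.9 CPM in mutant A and B and 3.96 and 82.6 CPM in WT A and B. It had 1.36 to 2.23 CPM in the 4 insulin libraries and 0 to 4.23 CPM in the 4 glucagon libraries. All somatostatin values lay above the insulin range, but 17 of the 28 counts came from WT B and the WT A value lay inside the glucagon range. Without the low-count filter it was higher than in insulin-gated cells by 3.50 ± 0.50 (edgeR adjusted p = 4.46e-10) and than in glucagon-gated cells by 3.52 ± 0.55 (2.48e-08). Cacna2d1 remained the main alpha2delta gene throughout, with 94.4% ± 4.75 of class counts in PP-gated, 82.6% ± 10.9 in somatostatin-gated, 83.2% ± 5.96 in glucagon-gated and 95.9% ± 2.15 in insulin-gated cells (SD, n = 4).

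Calcium channel beta genes, whose products bind the pore inside the cell, were led by Cacnb3 in all 4 hormone gates. Cacnb3 made up 49.2% ± 16.8 of the class in PP-gated, 53.7% ± 17.3 in somatostatin-gated, 51.0% ± 8.48 in glucagon-gated and 48.7% ± 9.59 in insulin-gated cells (SD, n = 4), and Cacnb2 was next with 33.2%, 24%, 34.0% and 34.1%. The level of the class was 96.4 ± 33.2 CPM in glucagon-gated and 54.4 ± 16.6 CPM in insulin-gated cells. Cacnb3 had 87.7 and 28.6 CPM in mutant A and B and 36.6 and 51.1 CPM in WT A and B in glucagon-gated cells, against 35.2, 13.4, 22.2 and 38.1 CPM in mutant A, mutant B, WT A and WT B in insulin-gated cells. It was higher in glucagon-gated cells in each library, by 0.85 ± 0.29 (edgeR adjusted p = 0.0327). That call was lost when any 1 library was left out, with adjusted p between 0.0508 and 0.179, and by DESeq2 (adjusted p = 0.0838). Cacnb1, the skeletal muscle form, and Cacnb4 stayed between 1.08 and 14.2 CPM in every glucagon and insulin library.

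Among the tested members, Cacng4 had the largest log2 difference between glucagon-gated cells and both somatostatin-gated and insulin-gated cells. The low-count filter could keep Cacng4 through its counts in glucagon-gated cells, where it is high, so its direction and rank were partly set by the filter. Its product belongs to the transmembrane AMPA receptor regulatory proteins, and the gene lies at chr11:107732357-107794557 (minus strand). Glucagon-gated cells had 43.2 and 41.0 CPM in mutant A and B and 40.7 and 25 CPM in WT A and B. Insulin-gated cells had 2.91 and 1.17 CPM in mutant A and B and 2.36 and 1.38 CPM in WT A and B. Every glucagon value lay above every insulin value, with a log2 difference of 4.09 ± 0.43 (edgeR adjusted p = 8.45e-09) and a pooled ratio of 16.8 (12.3 to 23.2, 213 and 51 counts). Somatostatin-gated cells held 2 counts in all, 1 each in mutant A and mutant B, a pooled ratio of 0.0649 to glucagon-gated cells (0.00780 to 0.237), and differed from them by -4.01 ± 0.84 (edgeR adjusted p = 0.00131). Both glucagon comparisons passed in every alternative tried.

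PP-gated cells also had more Cacng4 than insulin-gated cells. They had 0 and 18.8 CPM in mutant A and B and 31.7 and 60.0 CPM in WT A and B, from 11 counts. Against insulin-gated cells the difference was 3.66 ± 0.78 (edgeR adjusted p = 0.00172), lost only without WT B (2.90, adjusted p = 0.0890). Against glucagon-gated cells it was -0.43 ± 0.61 (adjusted p = 0.81), a pooled ratio of 0.835 with a counting interval of 0.411 to 1.52. Cacng4 had 67.6% ± 11.3 of the gamma counts in glucagon-gated cells and 10.5% ± 5.39 in insulin-gated cells, while Cacng2, or stargazin, had 16.7% ± 6.66 and 51.6% ± 12.7 (SD, n = 4). Cacng2 was at 7.50 and 8.77 CPM in mutant A and B and 6.95 and 20.3 CPM in WT A and B in insulin-gated cells. Cacng5, Cacng7 and Cacng8 stayed below 5 CPM in each insulin library.

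**Figure D3:**
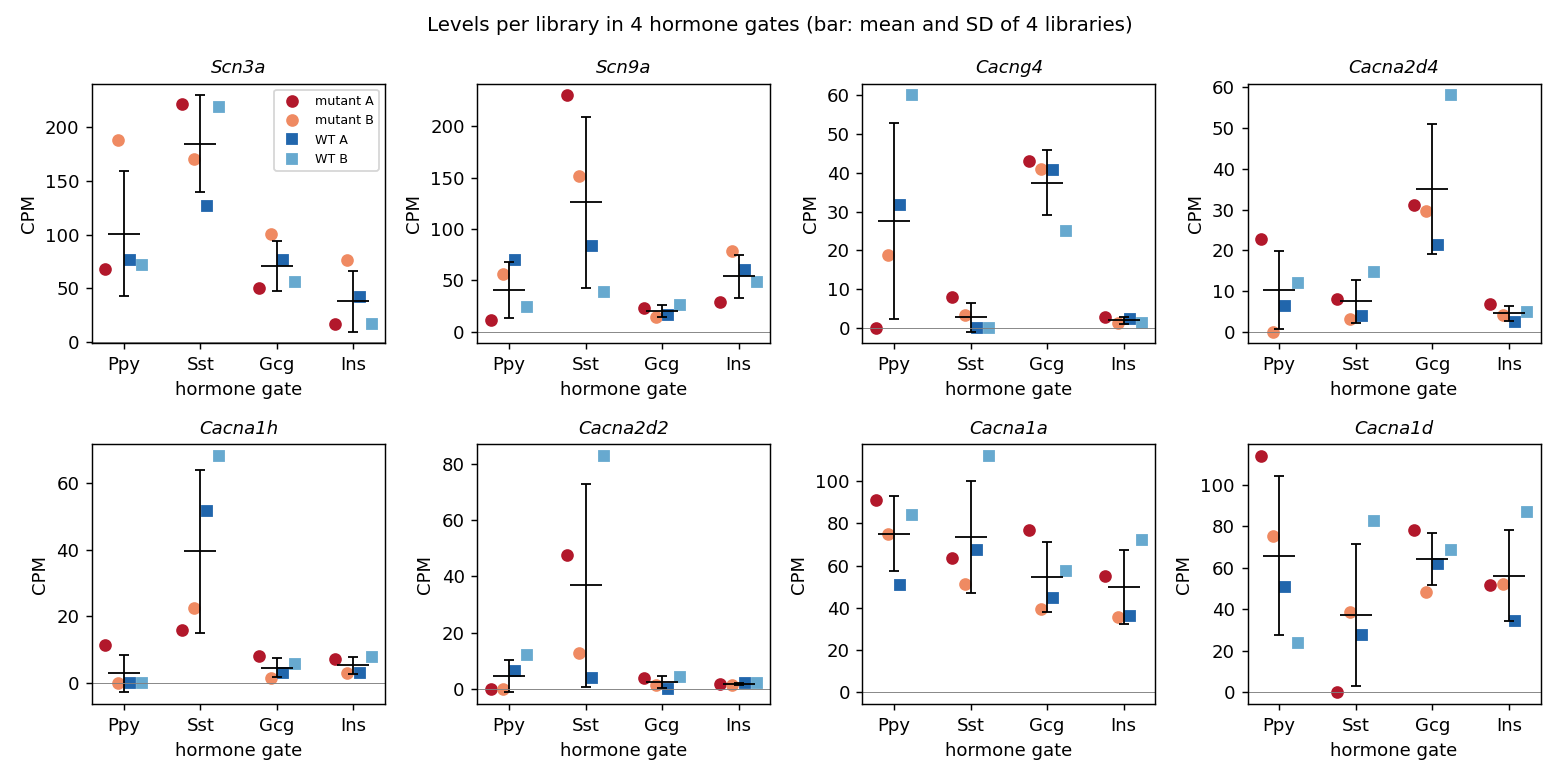
CPM per library in pancreatic polypeptide (Ppy), somatostatin (Sst), glucagon (Gcg) and insulin (Ins) gates for 8 members. Circles are libraries labelled mutant, squares those labelled WT, and the black mark is the mean with the SD of 4 libraries. Cacng4 and Cacna2d4 are high in the glucagon gate and low in the insulin gate, Cacna1h and Cacna2d2 are high in the somatostatin gate, and Cacna1a and Cacna1d overlap between gates.

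Sodium channel alpha genes differed between the gates in level and in mix. Their summed level was 363 ± 140 CPM in somatostatin-gated cells, 190 ± 91.7 CPM in PP-gated, 124 ± 10.7 CPM in glucagon-gated and 119 ± 43.8 CPM in insulin-gated cells (SD, n = 4). Scn3a, a channel of embryonic brain that is also known from islets, was highest in somatostatin-gated cells, with 222 and 171 CPM in mutant A and B and 127 and 219 CPM in WT A and B. Glucagon-gated cells had 49.9 and 100.8 CPM in mutant A and B and 76.3 and 55.7 CPM in WT A and B. Insulin-gated cells had 16.5 and 76.0 CPM in mutant A and B and 41.6 and 16.7 CPM in WT A and B. Every somatostatin value lay above every glucagon and insulin value, and within each library the order was somatostatin, glucagon, insulin.

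Scn3a was higher in somatostatin-gated than in insulin-gated cells by 2.39 ± 0.30 on the log2 scale (edgeR adjusted p = 3.48e-07), and than in glucagon-gated cells by 1.38 ± 0.30 (adjusted p = 0.00172). Both calls held under every alternative tried. Glucagon-gated cells were higher than insulin-gated cells by 1.01 ± 0.26 (edgeR adjusted p = 0.00526), a call that was lost without WT B (0.78, adjusted p = 0.0855) and without the library block (0.90, adjusted p = 0.185). PP-gated cells had 68.2 and 188 CPM in mutant A and B and 76.0 and 72.0 CPM in WT A and B, higher than insulin-gated cells by 1.31 ± 0.40 (edgeR adjusted p = 0.0377), which was lost when any 1 library was left out (adjusted p between 0.0563 and 0.164).

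Scn9a, the Nav1.7 channel known from pain-sensing neurons, had another order. Somatostatin-gated cells had 229.9 and 151 CPM in mutant A and B and 83.2 and 38.9 CPM in WT A and B. Glucagon-gated cells had 22.9, 14.0, 16.3 and 26.1 CPM in mutant A, mutant B, WT A and WT B, and insulin-gated cells had 28.8 and 78.9 CPM in mutant A and B and 60.0 and 48.2 CPM in WT A and B. Glucagon values lay below all somatostatin and all insulin values. Glucagon-gated cells were lower than insulin-gated cells by -1.36 ± 0.35 (edgeR adjusted p = 0.00467, lost without mutant B at -1.03 and adjusted p = 0.0994), and somatostatin-gated cells were higher than glucagon-gated cells by 2.45 ± 0.41 (7.69e-05, held throughout). Somatostatin against insulin gave 1.09 ± 0.36 (edgeR adjusted p = 0.0403), and that call was lost without mutant A (0.59, adjusted p = 0.323), without mutant B (1.16, 0.111), without WT A (1.32, 0.0544) and by DESeq2 (1.15, 0.110). In WT B the somatostatin value of Scn9a was below the insulin value. Scn9a (chr2:66480080-66634962, minus strand) overlaps Gm13629 at its 3′ end on the opposite strand, and reads of the pair cannot be told apart without strand.

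Scn3a (chr2:65457118-65567627, minus strand) lies in the same cluster of sodium channel genes as Scn9a, and the balance of the pair differed by gate. Of the counts of the pair, Scn9a had 50.9%, 47.0%, 39.6% and 15.1% in somatostatin-gated cells of mutant A, mutant B, WT A and WT B. Glucagon-gated cells had 31.5% and 12.2% in mutant A and B and 17.6% and 31.9% in WT A and B, against 63.5% and 50.9% in mutant A and B and 59.0% and 74.2% in WT A and B in insulin-gated cells. Insulin and glucagon libraries thus did not overlap, and the exact binomial intervals of a library's 2 gates were apart in all 4, the nearest being 45.6% and 57.7% in mutant A. As a share of all alpha counts, Scn3a led in PP-gated (53.3% ± 11.6, Scn9a 21.4% ± 12.6), somatostatin-gated (53.7% ± 15.1, Scn9a 32.8% ± 13.6) and glucagon-gated cells (56.8% ± 16.5, Scn9a 16.1% ± 4.63). In insulin-gated cells Scn3a had 28.8% ± 11.7 and Scn9a led with 45.0% ± 5.38 (SD, n = 4).

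Scn8a, the Nav1.6 channel of axon initial segments, was next, with 24.3 and 9.17 CPM in mutant A and B and 10.2 and 26.5 CPM in WT A and B in glucagon-gated cells. Insulin-gated cells had 13.8, 10.7, 9.68 and 22.4 CPM in mutant A, mutant B, WT A and WT B, and the difference did not pass (0.27 ± 0.35, edgeR adjusted p = 0.66). Other alpha genes were low. Scn1a, Scn4a (skeletal muscle), Scn7a, Scn10a and Scn11a (sensory neurons) stayed between 0.195 and 6.43 CPM in the insulin libraries. Scn2a1 had 2.16 to 4.13 CPM there. Scn11a had 7 counts in somatostatin-gated and 25 in insulin-gated cells, and passed without the low-count filter (2.74 ± 0.82, edgeR adjusted p = 0.0159).

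Of the sodium channel beta genes, Scn3b was higher outside insulin-gated cells. It had 7.93 and 12.9 CPM in mutant A and B and 27.7 and 24.3 CPM in WT A and B in somatostatin-gated cells. Glucagon-gated cells had 8.09 and 12.4 CPM in mutant A and B and 17.3 and 9.99 CPM in WT A and B, and insulin-gated cells 3.06, 3.90, 2.98 and 2.56 CPM in mutant A, mutant B, WT A and WT B. Every somatostatin and glucagon value lay above the insulin values. In the fit without the low-count filter the difference from insulin-gated cells was 2.16 ± 0.53 for somatostatin-gated cells (edgeR adjusted p = 0.00144), 1.64 ± 0.39 for glucagon-gated cells (4.98e-04) and 2.37 ± 0.68 for PP-gated cells (0.0152, from 9 counts, 4.40% of genes called). Scn2b and Scn4b stayed between 0.869 and 2.16 CPM in the insulin libraries. Scn2b overlaps Gm10684 at its 3′ end on the opposite strand.

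Genes of neurons shared their highest gate, somatostatin, with the summed sodium channel alpha level, but not the order of the other gates. They were higher in insulin-gated than in glucagon-gated and PP-gated cells. Scn9a was likewise lower in glucagon-gated than in insulin-gated cells, whereas Scn3a and Scn3b were higher there. The neuronal markers Rbfox3, Th, Dbh, Prph, Tubb3 and Nefl summed to between 0 and 79.6 CPM in PP-gated cells, 115 and 190 CPM in somatostatin-gated, 9.15 and 48.4 CPM in glucagon-gated and 84.8 and 128 CPM in insulin-gated cells. Nefl was at 0 in somatostatin-gated cells and Dbh in PP-gated cells. Their part in the results was not tested. As a gauge of RNA from outside a cell, insulin made up 0.0436% to 0.316% of counts in the endothelial and mesenchymal gates. Scn9a had 3 counts and Cacng4 2 counts among all endothelial cells.

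Endothelial cells, which do not fire action potentials, were low in almost every tested member. Of the 11, 10 were lower than the mean of the hormone gates and 0 higher, beside 52.3% of all genes called in either direction and 25.2% lower, and only Cacna1e did not pass (0.62 ± 0.51, edgeR adjusted p = 0.32). The low-count filter could keep a member on its hormone-gate counts alone, and such a member could come out only lower here. The 10 of 11 were thus partly set by the filter and say little about members as a set. Cacna1d had 0 and 0 CPM in mutant A and B and 3.74 and 0 CPM in WT A and B in endothelial cells, a single count, and was lower than the hormone gates by -6.08 ± 0.78 (edgeR adjusted p = 8.67e-08). Cacna2d1, at 22.5 and 11 CPM in mutant A and B and 3.74 and 11.9 CPM in WT A and B, was lower by -4.35 ± 0.29 (5.94e-14), and Scn3a by -4.48 ± 0.52 (1.18e-08). Calls of Cacna1c, Cacng4 and Scn8a were lost when single libraries were left out: Cacna1c without mutant B (-0.99, adjusted p = 0.153), Cacng4 without mutant A, mutant B or WT B (adjusted p between 0.0745 and 0.22) and Scn8a without mutant A or WT A (0.0786 and 0.113). Scn3b, which the low-count filter removed, had 1 count among endothelial cells and was lower in the fit without that filter (-3.92 ± 0.89, edgeR adjusted p = 1.32e-04, 17.3% of genes called).

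Mesenchymal cells differed from the hormone gates in both directions. Of the 11 tested, 1 was higher and 5 lower than the mean of the hormone gates, beside 51.9% of all genes called (28.8% higher and 23.1% lower). The low-count filter bears on these counts as it does for endothelial cells. Cacna1c, the L-type pore of heart and smooth muscle, had 78.1 and 53.7 CPM in mutant A and B and 64.4 and 29.6 CPM in WT A and B, and was higher by 0.84 ± 0.29 (edgeR adjusted p = 0.0166). The call was lost without mutant B (0.91, adjusted p = 0.0588) and without WT A (0.54, 0.205). Cacna1c made up 41.9% ± 12.3 of Cacna1 counts in mesenchymal cells (SD, n = 4). Lower were Scn3a (-3.51 ± 0.39), Scn9a (-3.47 ± 0.53), Cacna1d (-2.69 ± 0.41), Cacna1a (-1.70 ± 0.24) and Cacnb2 (-0.96 ± 0.37), with edgeR adjusted p of at most 0.0297. Cacnb2 lost its call without mutant B (-0.59, adjusted p = 0.251), WT A (-1.01, 0.0830) or WT B (-0.73, 0.212). Cacna2d1 was close to the hormone gates, at 239 and 153 CPM in mutant A and B and 127 and 178 CPM in WT A and B (-0.37 ± 0.17, adjusted p = 0.0643).

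3 members below the low-count filter were highest in mesenchymal cells. Scn7a, a sodium-sensing channel relative known from glia and muscle, had 9.76 and 61.2 CPM in mutant A and B and 17.9 and 32.9 CPM in WT A and B, against 1.57 to 4.75 CPM in insulin-gated cells. Cacng7 had 53.7 and 20.7 CPM in mutant A and B and 53.7 and 13.2 CPM in WT A and B, against 0.779 to 1.97 CPM in insulin-gated cells. The T-type gene Cacna1g had 24.4 and 17.4 CPM in mutant A and B and 10.7 and 29.6 CPM in WT A and B. In the fit without the filter (18.1% of genes called) they were higher by 3.64 ± 0.42, 4.34 ± 0.44 and 2.32 ± 0.41 (edgeR adjusted p = 8.21e-17, 3.64e-21 and 2.18e-07). Scn7a made up 48.6% ± 17.9 of the alpha counts in mesenchymal cells and Cacng7 58.5% ± 24.7 of the gamma counts.

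Proteins that bind, anchor or turn over these channels were followed as a list of 28 partner genes, 16 of them tested. In glucagon minus insulin 3 were higher and 4 lower, beside 20.7% of all genes called (10% higher and 10.7% lower), with a median of -0.01 beside 0.06 over all genes. Tspan13, a tetraspanin that binds calcium channels, had 66.1 and 90.6 CPM in mutant A and B and 69.1 and 59.6 CPM in WT A and B in glucagon-gated cells, against 159, 212, 160 and 198 CPM in insulin-gated cells of mutant A, mutant B, WT A and WT B (-1.40 ± 0.21, edgeR adjusted p = 4.55e-06). Sptbn4, a spectrin that holds sodium channels at the axon initial segment, was lower by -2.19 ± 0.34 (8.20e-06), Fgf12, an intracellular sodium channel partner, by -0.83 ± 0.28 (0.0313), and Gem, a small GTPase that inhibits calcium channels, by -0.80 ± 0.28 (0.0365). Higher were Nedd4l, a ubiquitin ligase of sodium channels (0.97 ± 0.25, 0.00549), the anchor protein Ank3 (0.72 ± 0.22, 0.0168) and Rem2, a relative of Gem (0.82 ± 0.27, 0.0253). In somatostatin minus insulin 1 was higher and 3 lower, beside 14.4% of all genes called, with a median of 0.03 beside -0.04: Ank2 was higher (1.36 ± 0.32, edgeR adjusted p = 0.00313), and Tspan13 (-1.46 ± 0.25), Sptbn4 (-3.05 ± 0.60) and Gem (-0.96 ± 0.32) were lower.

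Genes that store or remove calcium were followed as a list of 30, of which 18 were tested. In glucagon minus insulin 2 were higher and 3 lower, beside 20.7% of all genes called (10% higher and 10.7% lower), with a median of -0.01 beside 0.06 over all genes. Itpr1, an endoplasmic reticulum calcium release channel, had 219 and 338 CPM in mutant A and B and 221 and 294 CPM in WT A and B in glucagon-gated cells, against 33.2, 100.6, 48.8 and 72.9 CPM in insulin-gated cells of mutant A, mutant B, WT A and WT B (2.11 ± 0.24, edgeR adjusted p = 3.70e-08). Atp2a2, a pump that refills the endoplasmic reticulum, had 216 and 424 CPM in mutant A and B and 469.8 and 299 CPM in WT A and B in glucagon-gated cells, against 986, 2025, 1985 and 1519 CPM in insulin-gated cells (-2.25 ± 0.18, edgeR adjusted p = 5.25e-11). Neither gene overlapped between the gates. Its relative Atp2a3 was lower by -2.13 ± 0.27 and Stim1, the sensor of store depletion, by -0.87 ± 0.23, while the plasma membrane pump Atp2b4 was higher by 0.74 ± 0.20 (edgeR adjusted p of at most 0.00677). In somatostatin minus insulin 2 were higher and 3 lower, beside 14.4% of all genes called, with a median of -0.05 beside -0.04: Itpr1 (2.40 ± 0.26) and Atp2b4 (1.09 ± 0.24) were higher, and Atp2a2 (-1.87 ± 0.19), Atp2a3 (-2.24 ± 0.36) and Itpr2 (-2.73 ± 0.65) were lower, with edgeR adjusted p of at most 0.0033.

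By genotype label no member passed in any hormone gate. The comparison of 2 libraries labelled mutant with 2 labelled WT tested 1 member in PP-gated, 7 in somatostatin-gated, 17 in glucagon-gated and 28 in insulin-gated cells, with 0 past an adjusted p of 0.05 in each, where 0% of all genes passed. DESeq2 likewise called 0 members. Scn9a in somatostatin-gated cells was the only member at an unadjusted p under 0.05, and the share of all genes at that threshold is not given here. The test of whether the label difference itself differed between glucagon-gated and insulin-gated cells gave 0 of 30 members, beside 0% of all genes. With 2 libraries per label and no gene past the threshold, the fit could hardly call any gene, so these counts of 0 do not show that members were alike under both labels.

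Scn9a in somatostatin-gated cells had 229.9 and 151 CPM in mutant A and B, against 83.2 and 38.9 CPM in WT A and B, so the labels did not overlap. The log2 difference was 1.61 ± 0.61 (edgeR, unadjusted p = 0.0203, adjusted p = 0.9999). It rests on 29 and 47 counts from 28 and 70 cells in mutant A and B, and on 21 and 8 counts from 43 and 41 cells in WT A and B. Cacna1h ran the opposite way in the same cells, with 15.9 and 22.5 CPM in mutant A and B, against 51.5 and 68.1 CPM in WT A and B. Its log2 difference was -1.56 ± 0.91 (edgeR adjusted p = 0.9999), so it did not pass.

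In insulin-gated cells the difference by label had opposite directions within A and within B for about the same share of members as of all genes. Of 13 members with at least 20 counts in every library, 7 were higher in mutant A than in WT A and lower in mutant B than in WT B, 3 had the opposite pair of directions, 1 was above WT in both numbers and 2 below. That is 76.9% with opposite directions, beside 69.9% of the 10669 genes that met the same count. Scn3a had 16.5 CPM in mutant A against 41.6 CPM in WT A, and 76.0 CPM in mutant B against 16.7 CPM in WT B, ratios of 0.398 (0.317 to 0.495) and 4.55 (3.59 to 5.82). Scn9a moved alike, with ratios of 0.480 (0.403 to 0.569) and 1.64 (1.39 to 1.93), as did Cacna1b, with 0.355 (0.213 to 0.570) and 2.55 (1.69 to 3.94).

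Cacna1a had the reverse pattern, with ratios of 1.52 (1.30 to 1.79) in A and 0.494 (0.412 to 0.592) in B, and so did Cacnb3, with 1.58 (1.30 to 1.94) and 0.353 (0.264 to 0.466), Cacna1d, with 1.5 (1.28 to 1.77) and 0.597 (0.511 to 0.697), and Cacna1c, Cacnb2, Cacng2 and Scn8a. The intervals cover counting error only. Cacna2d1 stayed near even, with ratios of 0.929 (0.849 to 1.02) and 0.902 (0.831 to 0.978). Insulin itself made up 28.1% and 5.0% of the counts of insulin-gated cells in mutant A and B and 15% and 8.60% in WT A and B, and the median mitochondrial share was 3.32% and 9.82% in mutant A and B and 5.34% and 6.64% in WT A and B. These shares moved with the same libraries, and their part in the member ratios was not tested.

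In glucagon-gated cells 9 members had at least 20 counts in every library, of which 5 were higher in mutant A than in WT A and lower in mutant B than in WT B, 1 had the opposite pair of directions, 2 were above WT in both numbers and 1 below. Opposite directions thus made up 66.7%, beside 69.2% of all genes. Scn3a was again the member with the reverse direction, with ratios of 0.654 (0.429 to 0.983) in A and 1.81 (1.45 to 2.26) in B. Cacng4 was higher in both, with 1.06 (0.645 to 1.73) and 1.64 (1.16 to 2.32), and so was Cacna1c, with 1.19 (0.673 to 2.09) and 1.11 (0.791 to 1.56).

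**Figure D4:**
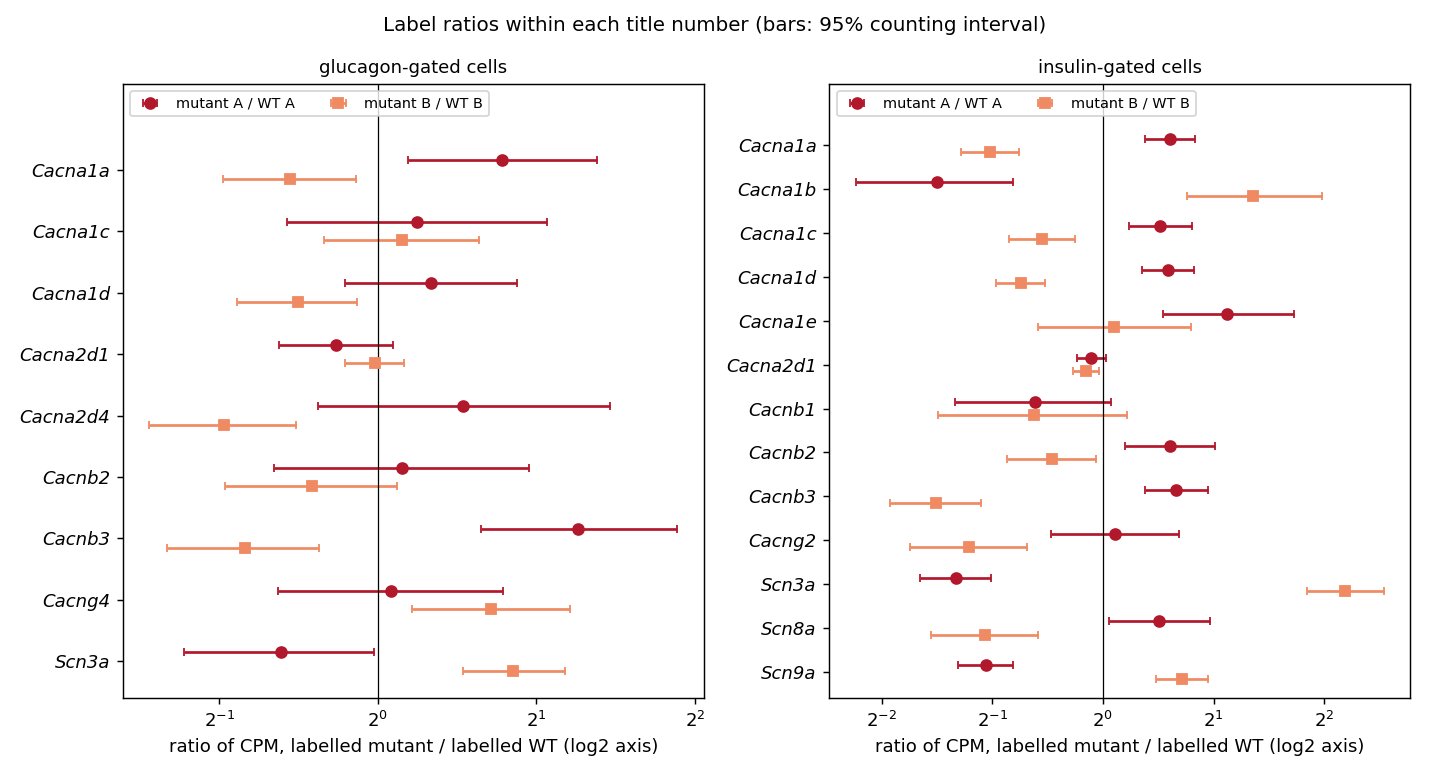
Ratio of CPM in the library labelled mutant to that labelled WT, within A (circles) and within B (squares), in glucagon-gated and insulin-gated cells, on a log2 axis with 95% counting intervals. Members with at least 20 counts in every library are shown. In insulin-gated cells Scn3a lies at 0.398 within A and 4.55 within B, and Cacna1a, Cacna1d and Cacnb3 lie above 1 within A and below 1 within B.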

How the data were processed

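The deposited values are whole-number counts per gene and barcode, not normalized, for 4 inDrop libraries of mouse islet cells. Per the submitters' processing notes the builds were GRCh38 and GRCm38, and the sources used here name no aligner or annotation and do not say whether molecular barcodes or strand were used. Features not marked as mouse (2 of 38459, with at most 2 counts per library) were left out.

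Barcodes were kept from 500 counts and 250 genes upward with no more than 25% mitochondrial counts, and 40 of 6566 cells (0.609%) were removed as doublets by Scrublet within each library. A hormone gate needed at least 2% of counts in that hormone, at least 5 times each other hormone and no marker panel at 0.2%. A panel gate needed all hormones under 2% and a panel at 0.2% and at least 5 times each other panel. Of the kept cells, 549 with mixed hormones and 649 others were not gated, and gates with at least 10 cells in every library entered the fit. Cells of a library are not replicates, so counts were summed per library and gate.

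Gates were compared with edgeR 4.0.16 in R 4.3.3 (quasi-likelihood F test, TMM factors, filterByExpr, Benjamini-Hochberg adjustment over all genes, library as a block), and labels within each gate without a block. DESeq2 1.42.0 was an alternative. The SE is the log2 difference divided by the square root of F. Fits were tested on simulated counts. Intervals are 95% exact Poisson, conditional binomial or Clopper-Pearson intervals and cover counting error only, and a count of 0 was read as up to 3 counts. Nothing in the labels says that libraries came from separate animals beyond the words on biological replicates, so the spread that p-values rest on may be partly technical.

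Members with at least 20 counts in a gate are plotted by library, those with a result are given per library in the text, and the others as ranges. The members and gene lists were chosen with earlier results of these data known. Alternatives were other hormone minimums (1% and 5%), a dominance of 2 times, no filter, no TMM, no block, only the gates compared, hormone and mitochondrial counts left out, and each library left out in turn. Coordinates are from GENCODE on GRCm38, and promoter windows from RefSeq. Results of some listed genes are not reported here.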

Additional observations from a re-analysis of the deposited data

Results flagged for a closer look

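Single libraries stood apart from the other 3 in 6 of 86 member and gate groups of 4 libraries, where chance flags about 1 in 20, or 4.3. In glucagon-gated cells of mutant A, Cacna1e had 27.0 CPM, against 7.12 to 7.69 CPM in the others, and Cacna1g 9.44 CPM, against 2.31 to 3.05 CPM. In insulin-gated cells of mutant A, Cacng5 had 4.90 CPM, against 1.75 to 2.23 CPM. Scn3a had 188 CPM in PP-gated cells of mutant B, against 68.2 to 76.0 CPM, from 10 counts. Cacng2 had 20.3 CPM in insulin-gated cells of WT B, against 6.95 to 8.77 CPM. Glucagon-gated cells of WT B had 25 CPM of Cacng4, against 40.7 to 43.2 CPM.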

How the results depend on the processing

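The number of members past the adjusted threshold depended on the setting more than their direction did: of the log2 differences called in the main comparisons, 297 values under alternatives stayed past the threshold, 46 no longer passed and none changed sign. PP minus somatostatin (0 members) had 2 by DESeq2, 2 without the low-count filter, and 1 each with a hormone minimum of 1%, without TMM and with only these gates. PP minus glucagon (0) had 1 each by DESeq2, at 1% and with only these gates. PP minus insulin (3) had 1 without the library block and 1 with only these gates. Somatostatin minus glucagon (3) had 6 without the filter. Somatostatin minus insulin (2) had 1 by DESeq2, 6 without the filter, 1 without the block and 7 with only these gates. Glucagon minus insulin (4) had 2 without the block and 7 with only these gates. The mesenchymal contrast (6) had 12 without the filter and 10 with hormone and mitochondrial counts left out. Leaving out 1 library at a time gave 0 to 2 members in PP minus somatostatin, 1 to 2 in PP minus insulin, 3 to 5 in somatostatin minus glucagon, 1 to 2 in somatostatin minus insulin, 2 to 4 in glucagon minus insulin and 4 to 8 in the mesenchymal contrast. More genes or fewer samples enter these fits by construction, and the cause of each move was not tested. The number of members tested and the share of all genes called also changed with the setting. Without the low-count filter that share was 6.76% in somatostatin minus insulin, 3.39% in somatostatin minus glucagon and 18.1% in the mesenchymal contrast. The main fit had 14.4%, 9.73% and 51.9%. These counts thus cannot be read as gains or losses of members as a set. The share of Scn9a in PP-gated alpha counts was 34.2% at a hormone minimum of 5%, where PP-gated cells were too few in 1 library for a fit.

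Without TMM the median of all genes moved to -0.01 in PP minus insulin, against -0.14 with it, and without the filter to -0.95, so differences there are best read relative to it. The label comparisons had 0 members in every alternative, and with the title number as a replicate block also 0. With 2 libraries per label these counts were close to fixed and say nothing about stability. Libraries sharing a number deviated together weakly, with correlations of 0.279 in PP-gated, 0.184 in somatostatin-gated, 0.0707 in glucagon-gated and 0.0354 in insulin-gated cells, and with 2 pairs the number was not taken as a pairing. Depth limits the PP-gated and somatostatin-gated cells most, where 5 and 10 members reached 20 counts.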
